A study of Rattus norvegicus with 6 samples.

Results

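The genes described here are 36 mitotic genes: cyclins and their kinase Cdk1, the mitotic kinases, the spindle checkpoint, the kinetochore, the kinesins and other spindle proteins, cytokinesis regulators and the chromosome proteins Top2a, Smc2 and Mki67. They were chosen by name, 1 probe set per gene, as the one with the highest mean signal over all arrays. Of the 36 genes, 33 had a probe set annotated to 1 symbol, and all 33 were among the 10240 genes tested. Tpx2, Ndc80 and Nek2 were not analysed here.

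Mitosis is driven by Cdk1 bound to cyclin B. Aurora and Polo kinases then organise the spindle, while the spindle checkpoint holds the anaphase-promoting complex back until every kinetochore is attached to microtubules. Most of these genes are transcribed late in the cell cycle, through promoter elements read by the DREAM and B-MYB/FOXM1 complexes, so their mRNA levels are widely used as a readout of proliferation. In cells responding to Hedgehog signals, GLI1 is the zinc finger protein that carries the signal to target genes.

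RNA came from RK3E, an epithelial line from rat kidney. It carries an adenovirus early-region oncogene that immortalised it, which parental and transformed cells share. The transformed cells were made by transfecting a GLI1 expression construct with a lipid reagent, and single foci were picked and kept as lines in DMEM with 10% serum. The labels do not give the promoter or species of the construct. Of 6 one-colour Affymetrix arrays, 4 carried GLI1-transformed cells: 1 array with no clone named, 1 of clone I and 2 of clone II. The other 2 carried parental RK3E cells, and nothing in the labels describes an empty-vector control. The design compared the expression profile of the transformed cells with that of the control cells.

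Gli1 had log2 signals of 13.15 (no clone named), 11.71 (clone I), 11.77 and 12.17 (clone II) in transformed cells, against 5.17 and 6.50 in parental cells. The groups did not overlap, and signal of a transfected construct and of the cells' own gene cannot be told apart. The ratio of 3' to 5' GAPDH signal, which climbs as RNA degrades, was 1.39 to 7.52 on the GLI1 arrays and 1.43 and 3.66 on the parental arrays, with the 2 highest on clone II replicate 1 and parental replicate 1. Of 8 epithelial markers, only Krt8 and Epcam passed the filter on low signal. The summed signal of the list was 1712 and 1414 in clone II and 7787 and 8884 on the other GLI1 arrays, against 2148 and 2548 in parental cells, so it lay below the parental arrays in clone II and above them on the other GLI1 arrays. Fibroblast markers, 5 of 6 of which passed the filter, summed to 5052 to 16947 in GLI1-transformed cells and 156807 to 174198 in parental cells. Of these 5, the collagens Col1a1, Col1a2 and Col3a1 fell and 2 did not pass, with log2 differences from -7.03 to 0.13. On the other GLI1 arrays against parental cells, 2 of the 5 had a positive difference, up to 0.84. None of the listed endothelial and immune markers passed the filter, and neural markers summed to 2102 to 5136 in GLI1-transformed and 4180 to 4423 in parental cells. The part of cell identity and RNA quality in the results was not tested. In these bulk samples, a larger share of dividing cells and more mitotic RNA per cell cannot be told apart.

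The kinase gene Aurkb had the highest rise of the mitotic genes in GLI1-transformed cells. Of the 33 genes, 8 rose (Aurkb, Mad2l1, Ube2c, Cdca8, Bub1, Nusap1, Top2a and Cenpf), 0 fell and 25 did not pass an adjusted p of 0.05 (limma). The rises were 1.49-fold to 2.48-fold, and Aurkb was the one gene past 2-fold. Hence 24.2% of the mitotic genes rose, where 7.80% of all tested genes rose and 7.75% fell. Over the 6822 genes with a mean signal at least that of the lowest mitotic gene, a background chosen after seeing the data, 9.47% rose and 7.46% fell. This background does not match the mitotic genes in brightness, as their median mean signal lay at the 85.8th percentile of tested genes. Their median SE was 0.21, against 0.25 over all tested genes. The median log2 difference was 0.50 over the mitotic genes and 0.07 over all tested genes. A positive difference was seen for 31 of 33 mitotic genes and for 5658 of all 10240 tested genes. At an unadjusted p under 0.05, 17 were higher and 0 lower, where 1876 of the 10240 tested genes were higher and 1527 lower. Every GLI1 array lay above both parental arrays for 18 genes (54.5%, where 23.4% of all tested genes did so). Every GLI1 array lay below both parental arrays for 1 gene, Kif23, where 19.8% of all tested genes did so. The groups overlapped for the remaining 14.

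The calls rest on few arrays, and the counts over all probe sets moved with them. In the main fit 1087 of 18625 probe sets rose. Without the array with no clone named 1377 rose, without clone I 599, and without clone II replicate 1 or 2 the counts were 824 and 906. Of the mitotic genes, 0 passed without parental replicate 1, although 11 were higher at an unadjusted p under 0.05 and the median difference was 0.52, and only 228 of 18625 probe sets then rose. Without the array with no clone named 14 mitotic genes passed, without clone I 4, and without clone II replicate 1 or 2 the counts were 6 and 5. Fewer mitotic genes passed without parental replicate 2, and the calls did not hold without both arrays of highest GAPDH ratio. Both of these fits leave 1 parental array, and calls over all probe sets dropped in them as well. The limma test without an intensity trend called 4 mitotic genes, and 705 of 18625 probe sets then rose.

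**Figure D1:**
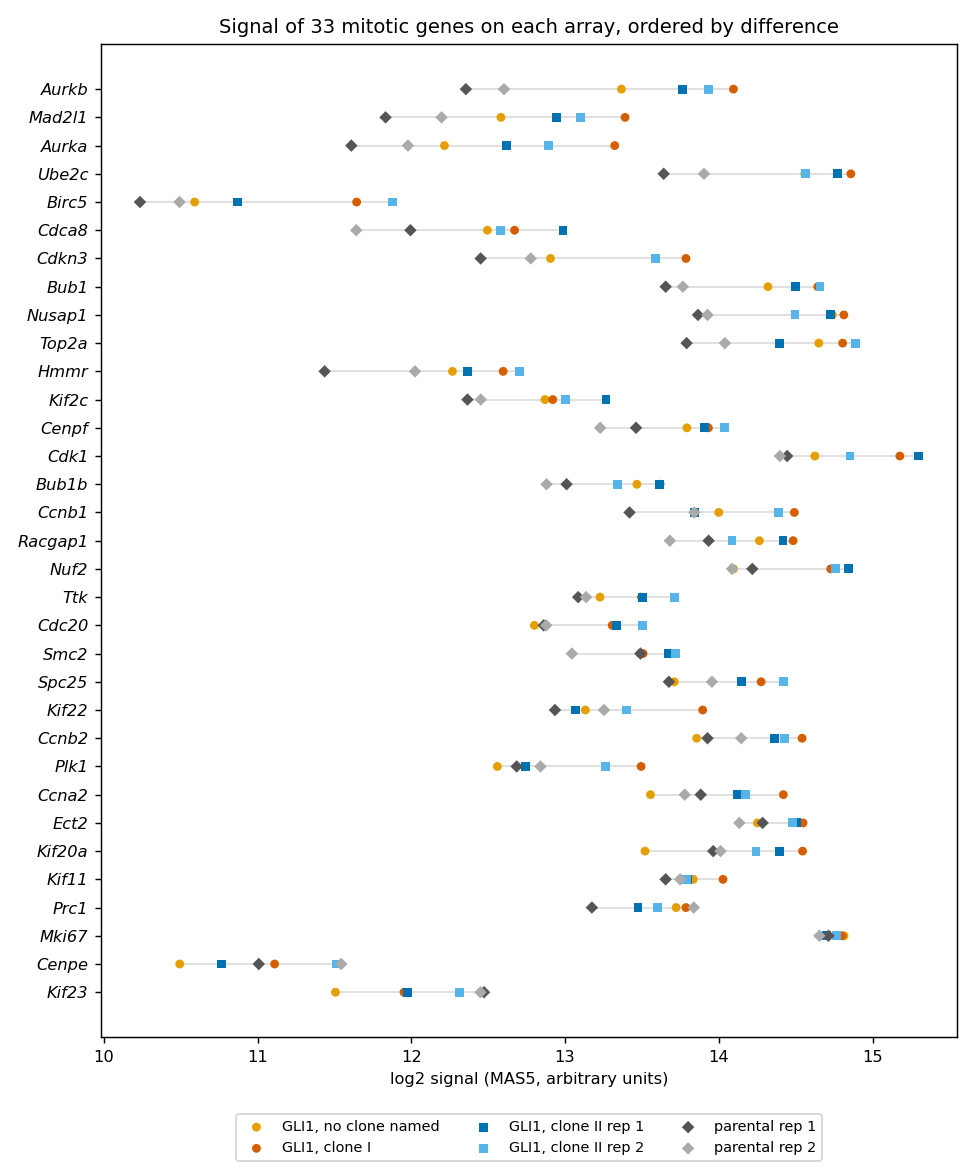
Log2 signal (x axis, MAS5 arbitrary units) of the 33 measured mitotic genes on each array, ordered by the difference between GLI1-transformed and parental cells. Circles are the GLI1 arrays outside clone II, squares clone II and diamonds the parental arrays. For 18 genes all GLI1 points lie right of both parental points, and for Kif23 all lie left. Positions are to be compared along a line, not between genes.

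Promoter sequence was examined because these genes are known to share cell cycle elements. The stretches of 150 bases before the gene start are shown for 3 genes that rose (Cdca8, Top2a and Bub1), for 2 genes of the core kinase that did not pass (Cdk1 and Ccnb2), and for Kif23, the gene with lower signal on every GLI1 array. Sequences are from RefSeq on the GRCr8 build, written 5' to 3' in the direction of the gene. Cdca8 lies at chr5:142483200-142483349 (minus strand), Top2a at chr10:84473094-84473243 (minus strand) and Bub1 at chr3:135504922-135505071 (minus strand). Cdk1 lies at chr20:19265143-19265292 (plus strand), Ccnb2 at chr8:79981659-79981808 (minus strand) and Kif23 at chr8:71320585-71320734 (minus strand). Capitals mark matches on either strand to TTTGAA, the letters of the cell cycle homology region bound by the DREAM complex, and to CCAAT, the letters of the box bound by NF-Y.
Cdca8: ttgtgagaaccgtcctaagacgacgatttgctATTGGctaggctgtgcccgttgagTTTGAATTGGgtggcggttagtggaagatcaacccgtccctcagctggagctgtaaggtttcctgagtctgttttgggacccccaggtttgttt
Top2a: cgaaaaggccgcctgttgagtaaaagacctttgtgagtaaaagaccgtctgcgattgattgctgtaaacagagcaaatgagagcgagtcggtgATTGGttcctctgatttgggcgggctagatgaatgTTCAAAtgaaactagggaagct
Bub1: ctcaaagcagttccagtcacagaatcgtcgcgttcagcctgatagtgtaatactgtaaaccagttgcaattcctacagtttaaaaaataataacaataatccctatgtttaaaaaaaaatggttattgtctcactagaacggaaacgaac
Cdk1: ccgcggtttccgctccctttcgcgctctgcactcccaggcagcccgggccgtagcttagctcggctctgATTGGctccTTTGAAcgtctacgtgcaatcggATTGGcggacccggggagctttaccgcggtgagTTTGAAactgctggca
Ccnb2: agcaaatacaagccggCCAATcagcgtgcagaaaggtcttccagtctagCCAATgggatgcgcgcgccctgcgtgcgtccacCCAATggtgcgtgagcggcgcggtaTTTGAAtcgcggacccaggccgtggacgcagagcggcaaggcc
Kif23: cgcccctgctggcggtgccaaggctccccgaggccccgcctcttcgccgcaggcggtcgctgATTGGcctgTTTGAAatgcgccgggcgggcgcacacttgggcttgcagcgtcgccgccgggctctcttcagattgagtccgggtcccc

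Cdca8 held TTTGAA from 94 bases before the start, and the last base of that match is shared with a CCAAT match on the opposite strand. Cdk1 held TTTGAA at 72 and 16 bases before the start, Ccnb2 at 43, and Kif23 at 79. The stretch of Bub1 held neither set of letters, which says only that these letters are not in this window. So the letters stood in genes that rose, in genes that did not pass and in the gene with lower signal on every GLI1 array.

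Over windows of 250 bases before to 50 after the start, 31 of the 36 genes had an entry, and 23 of them (74.2%) held TTTGAA on either strand. The letters were present in 18.3% of all 33469 promoters and in 11.4% of the 9606 promoters of tested genes. CCAAT was in 24 of 31 (77.4%), against 37.5% of all promoters and 37.7% of those of tested genes. Both sets of letters were in 19 of 31 (61.3%), against 7.41% of all promoters and 4.80% of those of tested genes; matches of both could overlap, as they did in Cdca8 and Mki67. The core letters of the GLI binding site, CCACCC, were in 9 of 31 (29.0%), against 29.4% of all promoters and 35.9% of those of tested genes. The longer GLI consensus GACCACCCA was in 0 of 31, against 0.385% of all promoters and 0.312% of those of tested genes.

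The median log2 difference between GLI1-transformed and parental cells was 0.41 over the 22 measured genes with TTTGAA and 0.55 over the 7 without it. For CCAAT these medians were 0.33 over 23 genes with it and 0.71 over 6 without, and for CCACCC 0.61 over 9 with it and 0.35 over 20 without. Of the genes that rose, 6 had an entry and 5 of these held TTTGAA, as did 17 of 23 that did not pass. These are descriptions of letters in a window, with no test. Aurkb and Ube2c are without an entry.

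**Figure D2:**
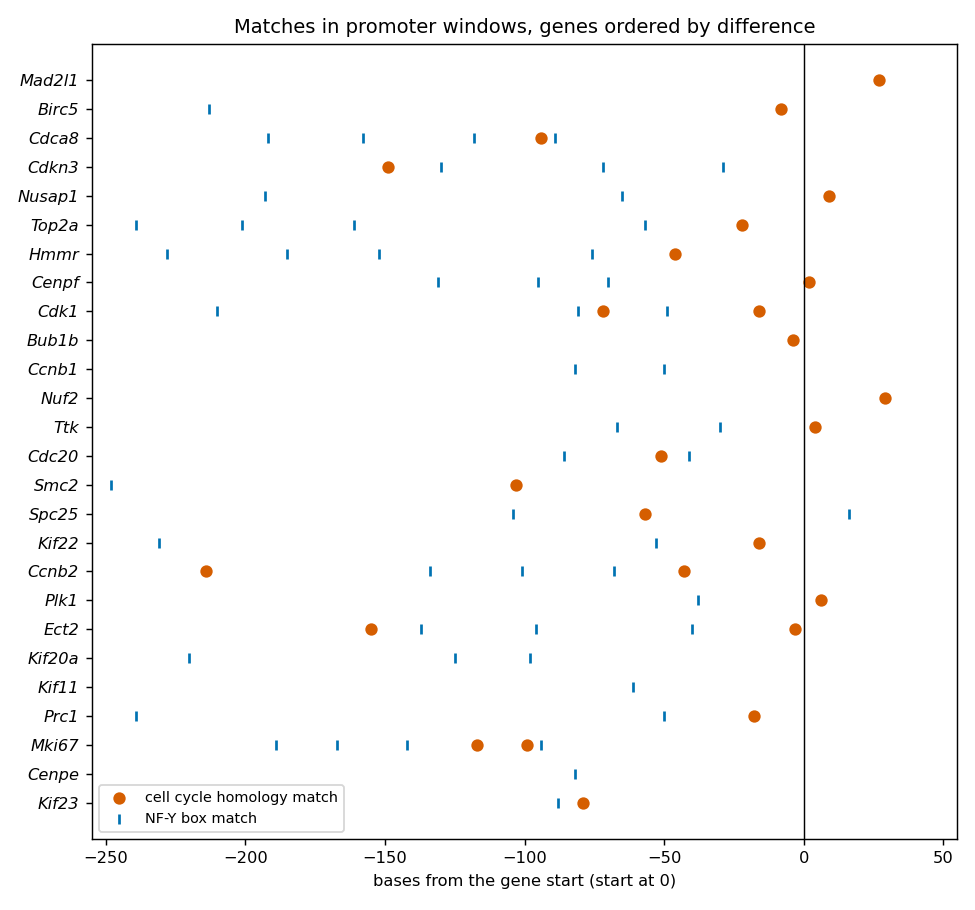
Distance from the gene start (x axis, bases, negative before the start) of each promoter match in measured mitotic genes with at least 1 match, ordered from the highest difference (Mad2l1) to the lowest (Kif23). Circles mark the cell cycle homology letters and ticks the NF-Y box letters, each at the first base of its match. Among all listed genes with an entry, 18 had a cell cycle homology match within 60 bases of the start.

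Cyclins, Cdk1 and the phosphatase Cdkn3 all had positive differences, and none of the 5 passed, with a median of 0.55. Cdk1, the kinase that starts mitosis, had log2 signals of 14.62 (no clone named), 15.18 (clone I), 15.30 and 14.85 (clone II) in GLI1-transformed cells, against 14.44 and 14.40 in parental cells. All GLI1 arrays were above both parental arrays, and the difference was 0.57 (95% interval 0.10 to 1.04, adjusted p = 0.107). Ccnb1, cyclin B1, the partner that activates Cdk1, had 14.00, 14.49, 13.84 and 14.39 in GLI1-transformed cells in the same order, against 13.42 and 13.84 in parental cells. Clone II replicate 1 and parental replicate 2 were at the same level, and the difference was 0.55 (adjusted p = 0.151). Cdkn3, which removes the activating phosphate from cyclin-dependent kinases, had 12.90, 13.79, 13.59 and 13.59 in GLI1-transformed cells and 12.45 and 12.78 in parental cells. Its groups did not overlap, and the difference was 0.85 (95% interval 0.28 to 1.43, adjusted p = 0.0585). Ccnb2, cyclin B2, and Ccna2, the cyclin of S phase and G2, differed by 0.26 (adjusted p = 0.467) and 0.24 (adjusted p = 0.553), and in both the array with no clone named lay below both parental arrays.

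Among the 8 measured mitotic kinases and chromosomal passenger proteins 3 rose, with a median difference of 0.84, where 7.80% of all tested genes rose. Aurkb, the kinase of the chromosomal passenger complex, which corrects wrong microtubule attachments, had log2 signals of 13.37 (no clone named), 14.09 (clone I), 13.76 and 13.93 (clone II) in GLI1-transformed cells, against 12.35 and 12.60 in parental cells. The lowest GLI1 array exceeded the higher parental array, and the difference was 1.31 (SE 0.22), a 2.48-fold rise (adjusted p = 0.00648). Cdca8, or borealin, which tethers the complex to chromosomes, had 12.49, 12.67, 12.99 and 12.58 in GLI1-transformed cells and 11.99 and 11.64 in parental cells. It rose 1.82-fold (log2 difference 0.86, SE 0.21, adjusted p = 0.0279), with no overlap. Birc5, or survivin, the remaining measured subunit in this group, had 10.59, 11.64, 10.87 and 11.88 in GLI1-transformed cells and 10.23 and 10.49 in parental cells. Clone I and clone II replicate 2 were high and the array with no clone named was close to parental replicate 2, and the difference of 0.88 did not pass (95% interval 0.05 to 1.72, adjusted p = 0.153). The scaffold of the complex, Incenp, one of the comparison genes, had a difference of 0.15 (adjusted p = 0.696).

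Aurka, the kinase of centrosomes and spindle poles, had log2 signals of 12.22 (no clone named), 13.32 (clone I), 12.62 and 12.89 (clone II) in GLI1-transformed cells, against 11.61 and 11.98 in parental cells. All GLI1 arrays were higher, clone I the highest, and the difference of 0.97 (95% interval 0.30 to 1.63) had an adjusted p of 0.0613. Bub1, a checkpoint kinase at kinetochores, had 14.32, 14.64, 14.50 and 14.66 in GLI1-transformed cells and 13.65 and 13.77 in parental cells. It rose 1.77-fold (log2 difference 0.82, SE 0.16, adjusted p = 0.013), and both groups were tight. Bub1b, its relative in the mitotic checkpoint complex, had a difference of 0.57 (adjusted p = 0.0566) with no overlap. Ttk, the kinase at the head of the checkpoint, had 0.37 (adjusted p = 0.21), also with no overlap. In another probe set of Ttk the groups overlapped, with 0.78 (adjusted p = 0.343). Plk1, the Polo kinase of mitotic entry, had 12.56, 13.49, 12.74 and 13.26 in GLI1-transformed cells and 12.69 and 12.84 in parental cells. The array with no clone named was below both parental arrays and clone II replicate 1 lay between them, and the difference was 0.25 (95% interval -0.36 to 0.86, adjusted p = 0.591).

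Of the checkpoint effector and the anaphase-promoting complex proteins, 2 of 3 rose, where 7.80% of all tested genes rose. Mad2l1, the checkpoint protein that holds Cdc20, had log2 signals of 12.58 (no clone named), 13.39 (clone I), 12.94 and 13.10 (clone II) in GLI1-transformed cells, against 11.83 and 12.20 in parental cells. It rose 1.99-fold (log2 difference 0.99, SE 0.24, adjusted p = 0.0296), with no overlap, while its other 2 probe sets had differences of 0.94 (adjusted p = 0.0624) and 0.83 (adjusted p = 0.0797). Ube2c, the ubiquitin-conjugating enzyme of the complex, had 14.56, 14.86, 14.77 and 14.56 in GLI1-transformed cells and 13.64 and 13.90 in parental cells. It rose 1.89-fold (log2 difference 0.92, SE 0.17, adjusted p = 0.00938), again with every GLI1 array above both parental arrays. Cdc20, the activator of the complex and the target of Mad2l1, had 12.80, 13.31, 13.33 and 13.51 in GLI1-transformed cells and 12.86 and 12.88 in parental cells. Here the array with no clone named was the lowest of all, and the difference was 0.37 (adjusted p = 0.303). Its 3 other tested probe sets had differences of -0.05 (adjusted p = 0.914), -0.72 (adjusted p = 0.39) and -0.81 (adjusted p = 0.107), so the direction of Cdc20 depends on the probe set.

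Kinetochore genes were mixed, with a median of 0.39 over 4 measured genes. Cenpf, a large protein of the outer kinetochore, had log2 signals of 13.79 (no clone named), 13.93 (clone I), 13.91 and 14.04 (clone II) in GLI1-transformed cells, against 13.46 and 13.23 in parental cells. It rose 1.49-fold (log2 difference 0.57, SE 0.16, adjusted p = 0.0495), close to the threshold, and kept the call in 5 of 15 alternatives. Nuf2 and Spc25, subunits of the NDC80 complex that grips microtubule ends, had differences of 0.46 (adjusted p = 0.218) and 0.32 (adjusted p = 0.369). Nuf2 had 14.10 on the array with no clone named and 14.73, 14.84 and 14.76 on clone I and clone II, against 14.22 and 14.09 in parental cells, so 1 GLI1 array sat at the parental level. Cenpe, the motor that carries chromosomes to the spindle equator, had 10.49, 11.11, 10.77 and 11.51 in GLI1-transformed cells and 11.01 and 11.54 in parental cells. It was 1 of 2 mitotic genes with a negative difference, -0.31 (adjusted p = 0.572), and its groups overlapped.

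Kinesins and spindle microtubule proteins had the lowest median of the role groups, 0.23 over 8 measured genes. Nusap1, which bundles spindle microtubules near chromosomes, had log2 signals of 14.74 (no clone named), 14.81 (clone I), 14.73 and 14.50 (clone II) in GLI1-transformed cells, against 13.86 and 13.93 in parental cells. It rose 1.74-fold (log2 difference 0.80, SE 0.16, adjusted p = 0.0123), and another probe set of the gene had 0.89 (adjusted p = 0.0565). Hmmr, which helps to focus spindle poles, had 12.27, 12.60, 12.36 and 12.70 in GLI1-transformed cells and 11.44 and 12.02 in parental cells. Its groups did not overlap, but the parental arrays were far apart, and the difference of 0.75 had an adjusted p of 0.0615. In another probe set of Hmmr the groups overlapped, with 0.29 (adjusted p = 0.534). Kif2c, which takes microtubule ends apart at centromeres, differed by 0.61 without overlap (adjusted p = 0.0588). In another probe set of Kif2c the groups overlapped, with 0.38 (adjusted p = 0.664). The motors Kif22, Kif20a and Kif11 and the midzone bundler Prc1 had differences of 0.28, 0.19, 0.16 and 0.14, with adjusted p of 0.51 to 0.717.

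Kif23, the motor of centralspindlin at the spindle midzone, had the lowest difference of the 33 genes. Its log2 signals were 11.51 (no clone named), 11.95 (clone I), 11.98 and 12.32 (clone II) in GLI1-transformed cells, against 12.47 and 12.45 in parental cells. Every GLI1 array lay below both parental arrays, but the difference of -0.52 did not pass (95% interval -1.06 to 0.01, adjusted p = 0.182), and another probe set had -0.51 (adjusted p = 0.628). Racgap1, the partner of Kif23 in centralspindlin, had 14.26, 14.48, 14.42 and 14.09 in GLI1-transformed cells and 13.93 and 13.68 in parental cells. All GLI1 arrays were higher, with a difference of 0.50 (adjusted p = 0.0937), so the point estimates of the 2 partners had opposite signs. Ect2, the exchange factor that centralspindlin recruits to start cleavage, differed by 0.24 (adjusted p = 0.368).

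Of the chromosome proteins, Top2a, the topoisomerase that untangles sister chromatids, had log2 signals of 14.65 (no clone named), 14.81 (clone I), 14.39 and 14.89 (clone II) in GLI1-transformed cells, against 13.79 and 14.04 in parental cells. It rose 1.71-fold (log2 difference 0.77, SE 0.19, adjusted p = 0.0278), and its other probe set rose as well (0.82, adjusted p = 0.0408). Mki67, the Ki-67 protein that coats mitotic chromosomes and is a common marker of dividing cells, had 14.81, 14.80, 14.70 and 14.77 in GLI1-transformed cells and 14.71 and 14.65 in parental cells. All arrays lay close together, and the difference was 0.09 (95% interval -0.23 to 0.41, adjusted p = 0.74), an interval narrower than 2-fold in either direction. Smc2, a condensin subunit, differed by 0.33 (adjusted p = 0.279).

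**Figure D3:**
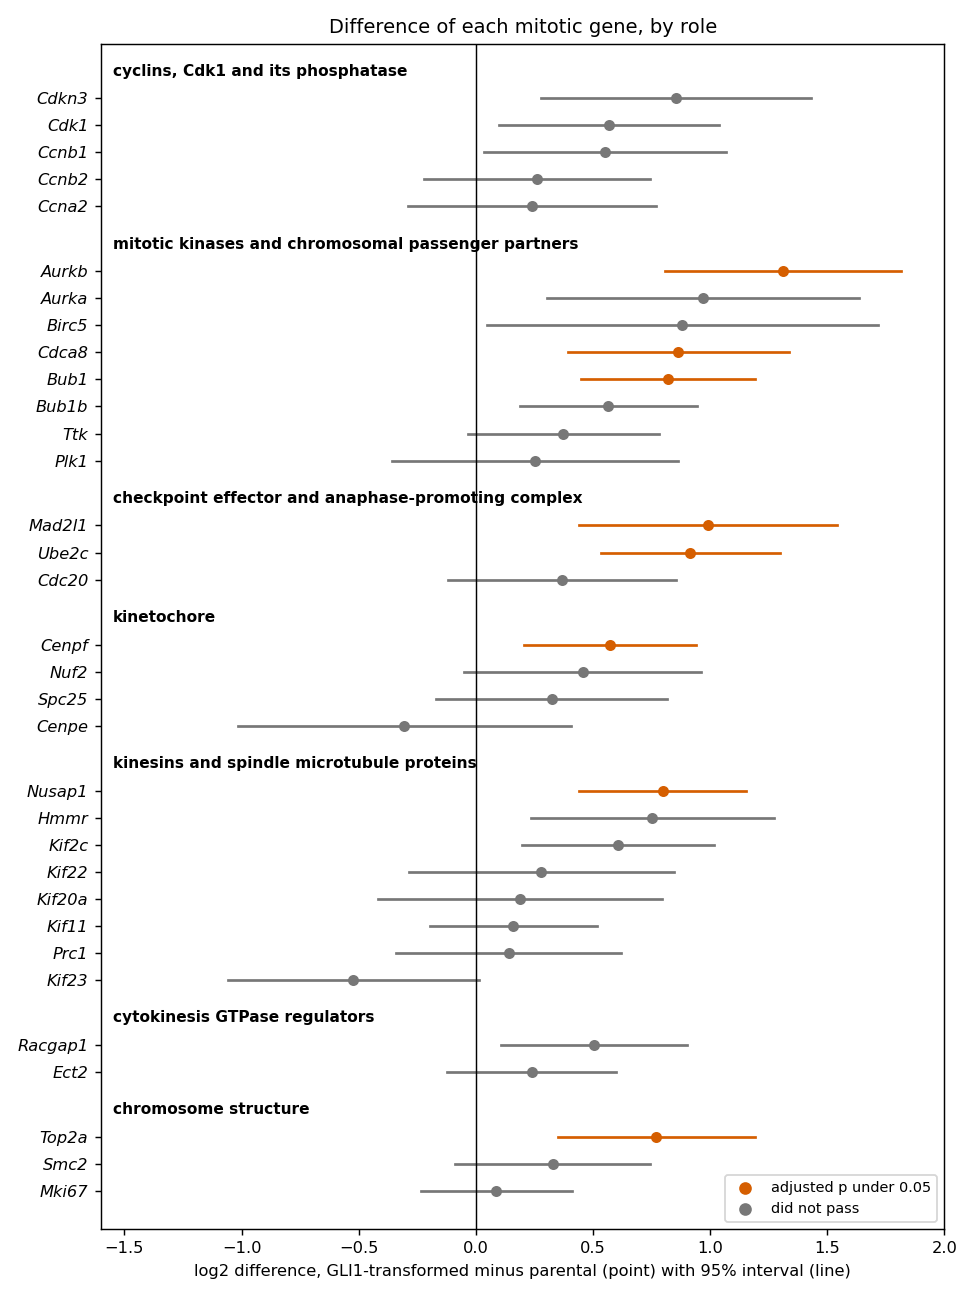
Log2 difference between GLI1-transformed and parental cells (x axis, point) with its 95% interval (line) for the 33 measured mitotic genes, grouped by role. Orange genes had an adjusted p under 0.05. Aurkb has the highest point, 1.31, and Kif23 the lowest, -0.52.

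The GLI1 arrays differed among themselves. The array with no clone named, which had the highest Gli1 signal, was the lowest of the 4 GLI1 arrays for 24 of 33 mitotic genes, and it was the lowest for 28.4% of all tested genes. Clone I was the highest of the 4 for 17 mitotic genes, against 18.4% of all tested genes, and the lowest for 0. Relative to the parental mean, the median mitotic gene stood 0.22 higher on the array with no clone named, 0.67 higher on clone I, and 0.48 and 0.60 higher on clone II (log2). On those arrays 20, 30, 26 and 30 of the 33 genes were above both parental arrays. Parental replicate 2 was above parental replicate 1 for 22 genes. The matching counts per array over all tested genes were not made, so these counts only describe the mitotic genes.

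Next, clone II and the other GLI1 arrays (clone I and the array with no clone named, not 1 known clone) were each compared with the same parental arrays. These comparisons therefore share their control. In clone II against parental cells 5 mitotic genes rose (Aurkb, Ube2c, Cdca8, Bub1 and Nusap1) and 0 fell, where 5.32% of all tested genes rose and 6.41% fell. At an unadjusted p under 0.05, 18 were higher and 0 lower, and the median difference was 0.53. Of all 10240 tested genes, 1648 were higher and 1375 lower at that unadjusted p. In the other GLI1 arrays against parental cells 5 rose (Aurkb, Ube2c, Bub1, Nusap1 and Top2a) and 0 fell, where 7.34% of all tested genes rose and 7.46% fell. At an unadjusted p under 0.05, 14 were higher and 1 lower, Kif23, and the median difference was 0.48. Of all 10240 tested genes, 1768 were higher and 1556 lower at that unadjusted p. Aurkb had differences of 1.37 (adjusted p = 0.016) in clone II and 1.25 (adjusted p = 0.0184) in the other GLI1 arrays, each against parental cells. Both counts of 5 were 0 in limma without an intensity trend. At an unadjusted p under 0.05, 12 genes were then higher in clone II and 9 in the other GLI1 arrays. Over all probe sets, 361 then rose in clone II and 638 in the other GLI1 arrays, against 743 and 1038 in the main fit. Neither count held when either parental array was left out, which leaves 1 parental array. The clone II count did not hold without either of its own arrays, nor the other count without clone I. Each of these fits leaves 1 array in that group. Calls over all probe sets dropped in all of these fits as well.

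When clone II was set directly against the other GLI1 arrays, 0 mitotic genes were called in either direction, where 0.0293% of all tested genes were higher and 0.146% lower in clone II. At an unadjusted p under 0.05 there were also 0 either way, where 449 of all 10240 tested genes were higher and 603 lower. In limma without the trend 0 were called. Leaving out clone I or the array with no clone named leaves 1 array to set against clone II. Calls over all probe sets moved with the array left out, so counts of mitotic genes from those fits are not read here. Krt8, an epithelial keratin, separated the same arrays, with log2 signals of 9.07 and 9.23 in clone II and 12.06 and 12.57 on the other GLI1 arrays (log2 difference -3.17, adjusted p = 0.0157). Its part in the mitotic values was not tested. The differences ran from -0.28 (Kif22) to 0.42 (Kif23), with a median of 0.11. For Aurkb the difference was 0.12 (95% interval -0.48 to 0.72), and for Plk1 -0.03 (95% interval -0.76 to 0.71), and both intervals include a 1.5-fold difference.

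**Figure D4:**
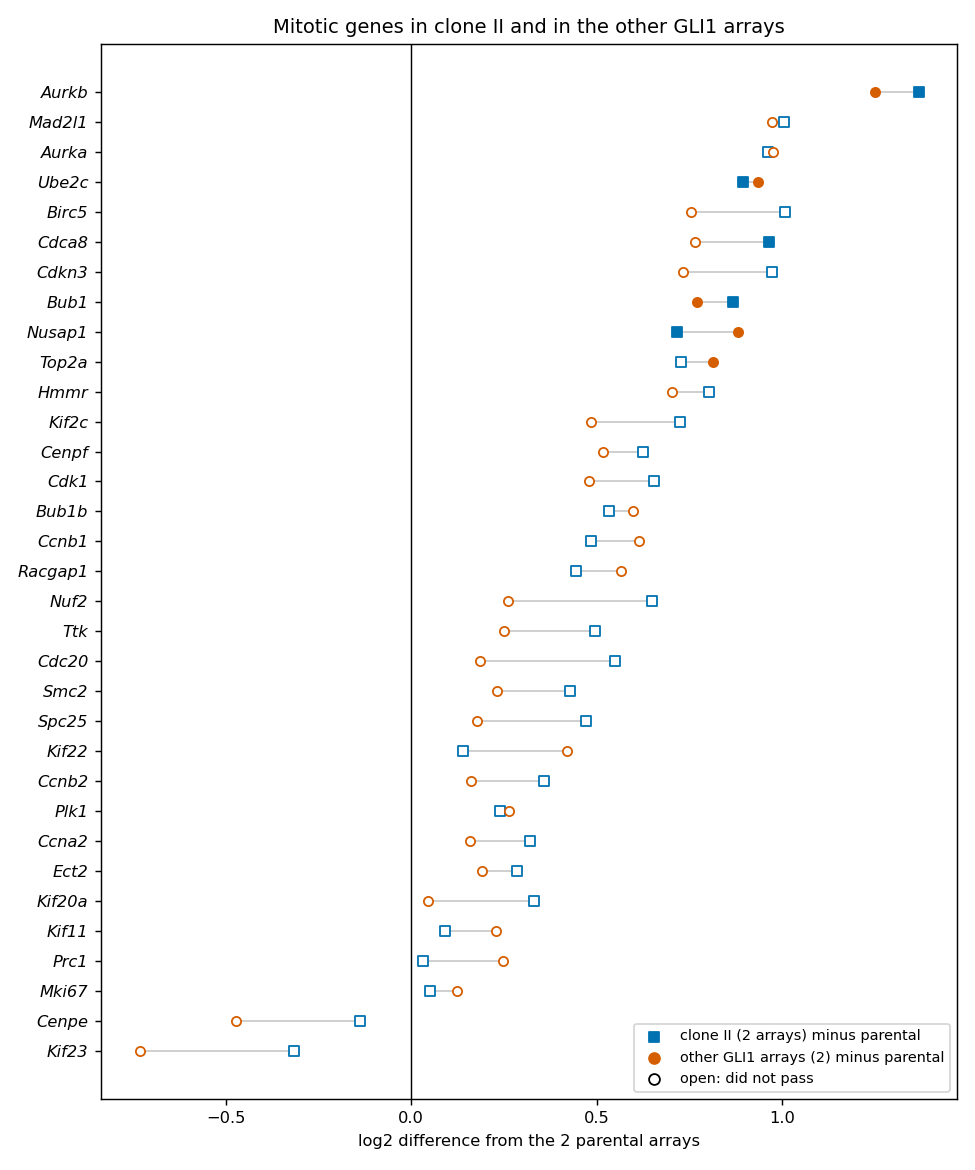
Log2 difference from the 2 parental arrays (x axis) in clone II (squares, 2 arrays) and in the other GLI1 arrays (circles, 2 arrays), for each measured mitotic gene. Filled symbols had an adjusted p under 0.05. Aurkb, Ube2c, Bub1 and Nusap1 are filled in both.

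The comparison lists place the mitotic genes among others of the cell cycle. Of 69 further mitotic genes tested, 13 rose and 0 fell, with a median of 0.44, where 7.80% of all tested genes rose and 7.75% fell. Those of smallest adjusted p, with their log2 differences, were Pkmyt1, a kinase that restrains Cdk1 (1.48, adjusted p = 0.00393), Kifc1, a minus-end kinesin (0.93, adjusted p = 0.0061), Ncaph, a condensin subunit (mean log2 14.68 in GLI1-transformed and 13.68 in parental cells, adjusted p = 0.00711), Cdc25b, a phosphatase that activates Cdk1 (1.36, adjusted p = 0.00883), Zwint, a kinetochore protein (1.09, adjusted p = 0.0101), and Kif18a, a chromosome-aligning kinesin (1.15, adjusted p = 0.0145). Pkmyt1 had 13.04, 12.35, 12.70 and 12.53 in GLI1-transformed cells and 11.26 and 11.09 in parental cells, without overlap. Both an inhibitor and an activator of Cdk1 were therefore higher, while Wee1, the other inhibitory kinase, had 0.22 (adjusted p = 0.533).

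Of 49 tested DNA replication genes 15 rose and 0 fell, with a median of 0.47, where 7.80% of all tested genes rose and 7.75% fell. The 33 mitotic genes, of which 8 rose, had a median of 0.50, so a rise was not particular to them. Orc1, of the origin recognition complex (1.78, adjusted p = 0.00723), Cdc45 (1.05, adjusted p = 0.00695) and Gins1 (0.98, adjusted p = 0.0077), of the replicative helicase, and the polymerase subunit Pold1 (0.91, adjusted p = 0.00866) rose, as did the clamp loader genes Rfc5 (0.84, adjusted p = 0.0109) and Rfc4 (0.86, adjusted p = 0.0191).

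Regulators of mitotic transcription moved both ways, with 7 of 21 rising, 2 falling and a median of 0.20. Over all tested genes 7.80% rose and 7.75% fell. Foxm1, the forkhead activator of late cell cycle genes, had log2 signals of 11.98 (no clone named), 12.43 (clone I), 12.04 and 12.25 (clone II) in GLI1-transformed cells, against 11.30 and 11.41 in parental cells. It rose 1.77-fold (log2 difference 0.82, SE 0.20, adjusted p = 0.0299), but another probe set of the gene had 0.02 (adjusted p = 0.972). Mybl2, or B-MYB, the partner that brings Foxm1 to these promoters, had a difference of 0.63 (adjusted p = 0.15). E2f8 (1.36, adjusted p = 0.00582), a repressor of the E2F family, Lin54 (0.84, adjusted p = 0.0131), the DNA-binding subunit of DREAM, E2f4 (0.76, adjusted p = 0.0244), its E2F subunit, and E2f1 (1.09, adjusted p = 0.0417), an activating E2F, all rose. The genes that fell were both pocket proteins: Rbl2, or p130, the DREAM pocket protein of resting cells (-1.16, adjusted p = 0.0164), and Rb1 (-1.81, adjusted p = 0.0344). Rb1 had 10.11, 9.94, 11.62 and 11.10 in GLI1-transformed cells and 12.83 and 12.17 in parental cells, without overlap. Of 15 alternatives, E2f1 kept its call in 7, Foxm1 in 8, and E2f4 and Rb1 in 9 each. Lin54 and Rbl2 kept theirs in 12 each and E2f8 in 13. The 4 comparison lists held 40 calls in all, against 3 without parental replicate 1, 9 without parental replicate 2 and 18 without clone I.

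**Figure D5:**
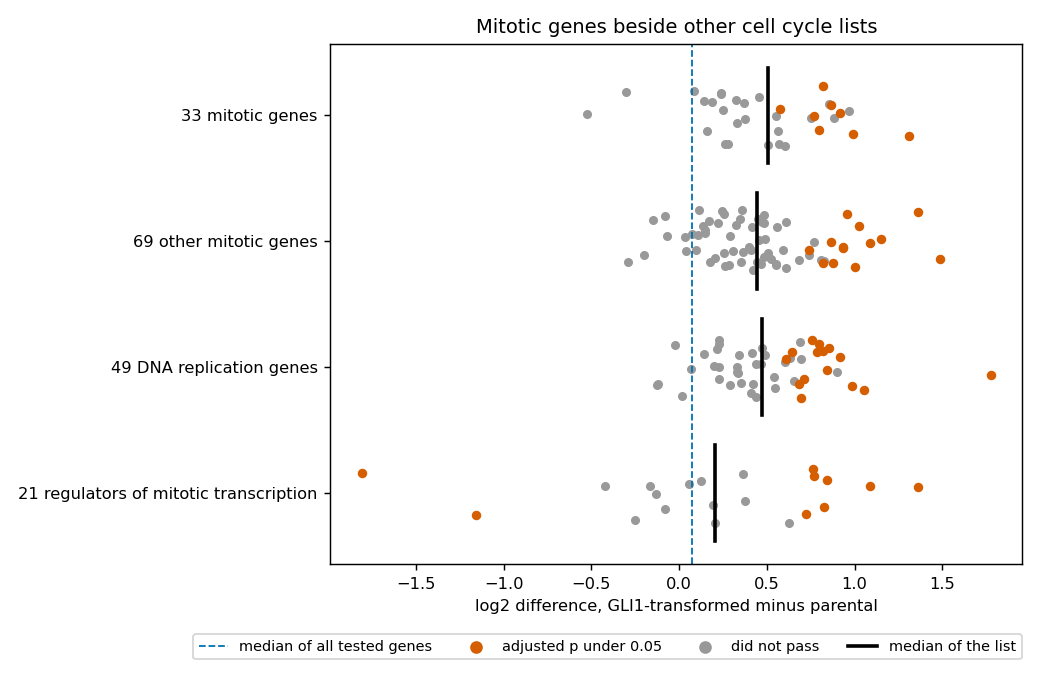
Log2 difference between GLI1-transformed and parental cells (x axis) of each tested gene in the mitotic genes and 3 comparison lists. Orange points had an adjusted p under 0.05, black bars are list medians (0.50, 0.44, 0.47 and 0.20 from top to bottom) and the dashed line is the median of all tested genes, 0.07.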

How the data were processed

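Expression was measured on 6 one-colour Affymetrix rat arrays, 4 of GLI1-transformed and 2 of parental RK3E cells. Each probe set has 1 deposited intensity value per array, on a linear scale; the authors used MAS5, per the submitters' processing notes. The MAS5 version and the genome build are not given in the sources used here. The labels call the samples biological replicates without saying how cultures were kept apart, so p-values reflect spread between arrays that may be technical, and the number of arrays limits precision. The 2 clone II arrays are of 1 clone and the 2 parental arrays of 1 line. Arrays, not independently transformed lines, were therefore the units of every test. The most values shared by any pair of arrays was 16.

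Values were log2-transformed after signals under 1 were raised to 1. From 31099 probe sets 57 controls were dropped, and 18625 with a mean log2 above the 40th percentile (8.33) were tested, two-sided, with limma 3.58.1 in R 4.3.3 (lmFit, eBayes with an intensity trend), Benjamini-Hochberg over all 18625 and a threshold of 0.05. A 2-level model (4 residual degrees of freedom) compared GLI1-transformed with parental cells, and a 3-level model (3) split off clone II. "Rose" and "fell" mean an adjusted p under 0.05. The fit was first run on simulated data with independent noise in each probe set. That run set a bound only on the mean error of planted differences, so it does not show how often false calls arise here. Among 31042 probe sets, 20826 had 1 gene symbol, 436 several and 9780 none; 20758 were matched by gene ID to RefSeq genes of GRCr8.

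The text names every measured gene of the set, from each comparison list the called genes with the smallest adjusted p (6 at most), and Foxm1, Mybl2, E2f1, Ccnd1 and Ccnd2. Incenp, Wee1, Krt8, Cdkn2a and Cdkn2b were added after their values were seen. The genes and lists were chosen with earlier results of these data known. Promoter letters were matched exactly on both strands, in the first entry where a gene had several. Alternatives were median and quantile scaling, filters, an added 32, no trend, a 2-fold minimum, mean probe sets, a replicate block and leaving arrays out.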

Additional observations from a re-analysis of the deposited data

Results flagged for a closer look

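Nuf2, a subunit of the NDC80 complex, had a log2 signal of 14.10 on the GLI1 array with no clone named, far from the other 3 GLI1 arrays (14.73, 14.84 and 14.76) and at the level of the parental arrays (14.22 and 14.09). Its gap to the nearest other GLI1 array was 0.846 of the range of the 4 arrays. It was the 1 gene of 33 singled out by this measure, and chance singles out about 1 in 20 such groups. Without this array the difference between GLI1-transformed and parental cells was 0.63 (limma, adjusted p = 0.0245). Leaving out the array flagged for its low value had to raise the difference, so this value is no separate evidence of a rise. Calls also grew across the table, with 1377 probe sets rising against 1087 in the main fit.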

How the results depend on the processing

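With GLI1-transformed against parental cells, 29 of the 33 mitotic genes kept a positive difference under every alternative run, and the median difference, 0.50, ranged over 0.45 to 0.58 when 1 array was left out. Median centring shifted the median of all probe sets to 0.17, and the mitotic median was then 0.67. The 8 calls became 7 to 11 under other scalings, filters, an added constant, averaged probe sets or a replicate block. They became 4 without an intensity trend, 1 with a 2-fold minimum and 0 without both arrays of highest GAPDH ratio, and 0 to 14 when 1 array was left out. The 40 calls of the comparison lists became 16, 15 and 1 under these settings, and 3 to 46 with 1 array left out. For clone II against parental cells the 5 calls became 0, 1 and 0, and 0 to 8 with 1 array left out. For the other GLI1 arrays against parental cells the 5 calls became 0, 1 and 0, 3 with median centring, 3 with no filter, and 0 to 7 with 1 array left out. In limma without the trend these zeros stood beside 12 and 9 genes higher at an unadjusted p under 0.05. Over all probe sets, 361 then rose for clone II and 638 for the other GLI1 arrays, against 743 and 1038 in the main fit. With a 2-fold minimum these were 541 and 809. For the other GLI1 arrays 1072 rose with median centring, and 930 of 31042 with no filter. Without both arrays of highest GAPDH ratio, calls over all probe sets dropped in each comparison with parental cells. Where 1 array was left of a group, it is assumed to vary like the others. The cause of these changes was not tested. Median centring turned the split of all probe sets, 1454 rose and 944 fell, against 1087 and 1351 as deposited.

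The sign turned for Cdc20 with averaged probe sets (-0.30), for Prc1 without both arrays of highest GAPDH ratio (-0.13) and over -0.19 to 0.47 with 1 array left out, and for the median of clone II against the other GLI1 arrays, -0.15 to 0.29. Replicates that share a number had correlated deviations of 0.10, 0.07 and 0.32, the last for clone II with parental cells. These values cannot settle whether the numbers pair the arrays, and the main models did not pair them. Over all probe sets, 1190 rose with a replicate block for GLI1-transformed cells, 1116 for clone II and 1523 for the other GLI1 arrays. Without it these counts were 1087, 743 and 1038. With a replicate block 11 mitotic genes passed for GLI1-transformed against parental cells, 12 for clone II and 11 for the other GLI1 arrays, of which 10 rose and 1, Kif23, fell (-0.73, adjusted p = 0.0458).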

Other observations

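Of 9 tested G1 cyclins and partners, genes of the step before DNA replication, 2 rose and 1 fell, where 7.80% of all tested genes rose and 7.75% fell. At an unadjusted p under 0.05, 2 were higher and 4 lower, where 1876 of all 10240 tested genes were higher and 1527 lower. The log2 differences of the list ran from -2.61 to 4.68. Ccnd2, cyclin D2, had log2 signals of 16.33 (no clone named), 15.74 (clone I), 13.82 and 14.15 (clone II) in GLI1-transformed cells, against 10.32 and 10.34 in parental cells. It rose 25.6-fold (log2 difference 4.68, SE 0.63, adjusted p = 0.00213). Ccnd1, cyclin D1, had 12.14, 10.76, 9.97 and 9.95 in GLI1-transformed cells and 7.59 and 9.03 in parental cells, and rose 5.25-fold (adjusted p = 0.0408, lost in 7 of 14 alternatives). For both, clone II lay below the other GLI1 arrays, while Aurkb, with 13.76 and 13.93 in clone II and 13.37 and 14.09 on the other GLI1 arrays, overlapped. Cdkn2c, an inhibitor of the cyclin D kinases, fell to 12.65 and 12.55 in clone II and 11.99 and 11.90 on the other GLI1 arrays, against 13.25 and 13.38 in parental cells (log2 difference -1.04, adjusted p = 0.0269). Its relatives Cdkn2a and Cdkn2b had differences of -1.30 (adjusted p = 0.0627) and -2.61 (adjusted p = 0.102).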
